A study of Mus musculus with 6 samples.

Results

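The genes described here are 10 components of insulin and insulin-like growth factor (IGF) signaling, chosen by symbol from the 55491 genes of the deposited table. They are the ligands *Igf1* and *Igf2*, the receptors *Insr* and *Igf1r*, the receptor substrates *Irs1* and *Irs2*, the kinase components *Pik3r1* and *Akt2*, the glucose transporter *Slc2a4*, and the transcription factor *Foxo1*. Each symbol matched 1 row of the table. The RNA came from inguinal white adipose tissue (IWAT), a subcutaneous fat depot, of male C57BL/6J mice that were 4 weeks old and ate regular chow. The 3 *Ebf2+/+* mice were wild type, and the 3 *Ebf2 E165X/+* mice carried a heterozygous nonsense knock-in allele of *Ebf2* (E165X), made with CRISPR/Cas9. *Ebf2* encodes an EBF family transcription factor of adipocytes and their precursors. The allele is in the germline, so it was not restricted to adipocytes, and IWAT contains adipocytes, stromal, vascular, and immune cells. In such bulk tissue, fewer cells of a type and less RNA per cell cannot be told apart. Each mouse gave 1 library, with totals from 106820505 to 135039488 counts, and between 27154 and 28120 genes had at least 1 count.

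Insulin and the IGFs bind related receptor tyrosine kinases, which phosphorylate the IRS adaptor proteins. The adaptors recruit phosphoinositide 3-kinase (PI3K), and its lipid product activates AKT. In adipocytes, AKT moves the glucose transporter GLUT4, encoded by *Slc2a4*, to the cell surface, restrains lipolysis, promotes lipid synthesis through mTOR complex 1, and keeps FOXO factors out of the nucleus. Much of this regulation is by phosphorylation and protein movement, which RNA counts do not measure.

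No file used here measured binding to DNA, so promoter sequence is shown only to place the genes beside the motif of the EBF family. RefSeq promoters (GRCm38.p6), each covering 250 bases before and 50 bases after a transcription start, were found for 8 of the 10 genes, with 15 promoters in all. *Insr* and *Slc2a4* had no entry. The EBF-type motif CCCNNGGG, which reads the same on both strands, occurred in 2 of these 15 promoters, and 13.7% of all 32851 promoters held it. Both windows are given 5′ to 3′ on the plus strand, which is the strand of both genes, with the motif in capitals. The first window is at chr3:52268235-52268264 with the motif at position −91 from the *Foxo1* start, and the second is at chr10:87861120-87861149 with the motif at position 20 from an *Igf1* start.
Foxo1: tactgccgcctCCCGAGGGaaggcagcgcc
Igf1: atgagtggcttCCCTTGGGggaaaaagacg
The FOXO-type motif GTAAACA was found on either strand in 0 of the 15 promoters and in 3.65% of all promoters. A match of these letters is a description of the sequence and not a binding site.

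*Ebf2* itself was lower in every knock-in mouse. Its expected counts were 4603, 4357, and 4611 in wild-type mice, against 2635, 2863, and 2697 in knock-in mice. In CPM (counts scaled to library size with TMM factors, used for all levels below), the mean was 39.0 ± 2.14 (SD, n = 3) in *Ebf2+/+* and 22.3 ± 1.04 (SD, n = 3) in *Ebf2 E165X/+* IWAT. The log2 fold change was −0.81 (SE 0.076), with an adjusted P of 0.0596 in the edgeR quasi-likelihood test and 2.5e-13 in DESeq2. The genotypes did not overlap in *Ebf2* level, although the edgeR value was above the 0.05 threshold with all mice. Without the third knock-in mouse *Ebf2* passed both thresholds (log2 fold change −0.77, edgeR adjusted P = 0.0423), and over all mice left out in turn the adjusted P ran from 0.0423 to 0.369. Counts per gene do not read the allele itself, so this level does not test the genotype labels.

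All 10 adipocyte markers, among them *Adipoq*, *Plin1*, and *Lpl*, were detected in every library. Their summed level was 23136, 24101, and 20819 CPM in *Ebf2+/+* and 22153, 20620, and 14184 CPM in *Ebf2 E165X/+* IWAT, so the libraries held adipose tissue RNA as labelled. These genes are expressed in all white fat depots and do not test which depot was taken. The third *Ebf2 E165X/+* library stood apart. The summed level of 8 skeletal muscle markers was 38143 CPM there, and these genes took 3.62% of its counts, against 648 to 6688 CPM and 0.0689% to 0.660% of counts in the other libraries. *Myh4*, a fast muscle myosin, contributed the most counts to this sum, and none of the 8 was at 0 in any library. Values without that mouse are therefore given beside several of the genes below.

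Other markers of the depot were compared with a two-sided exact permutation test, in which 3 against 3 mice cannot go below P = 0.1. The 8 brown and beige adipocyte markers, led by *Cidea*, summed to 183, 258, and 254 CPM in *Ebf2+/+* and 41.1, 43.3, and 149 CPM in *Ebf2 E165X/+* mice. These groups did not overlap (exact permutation P = 0.1, adjusted over 9 marker lists P = 0.36). *Cidea* alone averaged 96.9 CPM in *Ebf2+/+* and 10.3 CPM in *Ebf2 E165X/+* mice. Its log2 fold change was −3.24 (adjusted P = 0.0046 in edgeR, up to 0.0565 with a mouse left out, and 1.7e-57 in DESeq2). *Ucp1* had a log2 fold change of −5.83 (adjusted P = 0.0596 in edgeR and 9.8e-18 in DESeq2). The third knock-in mouse, with the muscle markers, had the highest knock-in sum. Its *Cidea* (13.2 CPM) and *Ucp1* (0.617 CPM) lay below all wild-type mice. The part of these 8 markers in the results below was not tested. The genotypes overlapped for the adipocyte markers (exact permutation P = 0.2), the 8 progenitor markers, led by *Dcn* (means 1744 and 1948 CPM, exact permutation P = 0.2), the 5 endothelial markers, led by *Pecam1* (1045 and 913 CPM, exact permutation P = 0.2), the 5 epithelial markers, led by *Krt5* (69.5, 1.93, and 34.4 CPM against 27.7, 1.55, and 5.81 CPM, exact permutation P = 0.5), and the muscle markers (exact permutation P = 0.8).

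None of the 10 signaling genes passed the thresholds of an adjusted P below 0.05 and a linear fold above 1.5 in edgeR, DESeq2, or limma-voom. Among the 32664 genes tested, edgeR called 3 (0.00918%), DESeq2 called 92 (0.282%), and limma-voom called 4 (0.0122%). At an unadjusted P under 0.05, edgeR returned 2 of the 10, *Igf1r* (higher) and *Akt2* (lower), and the share among all genes tested was 4.77% (1.68% higher and 3.09% lower). These were also the 2 genes for which all 3 mice of one genotype lay above all 3 mice of the other, a pattern found in 13.4% of the 18905 genes that reached 10 counts in each of the 6 libraries (6.66% higher and 6.78% lower). All 10 genes passed that count minimum. The fold change estimate was positive for 5 genes and negative for the other 5, with a median log2 fold change of 0.024 beside 0.014 over all genes tested. Without the third *Ebf2 E165X/+* mouse, 5 of the 10 genes separated the genotypes against 26.8% of all genes, and none of the 10 was called (11 of all genes, or 0.0343%).

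**Figure D1:**
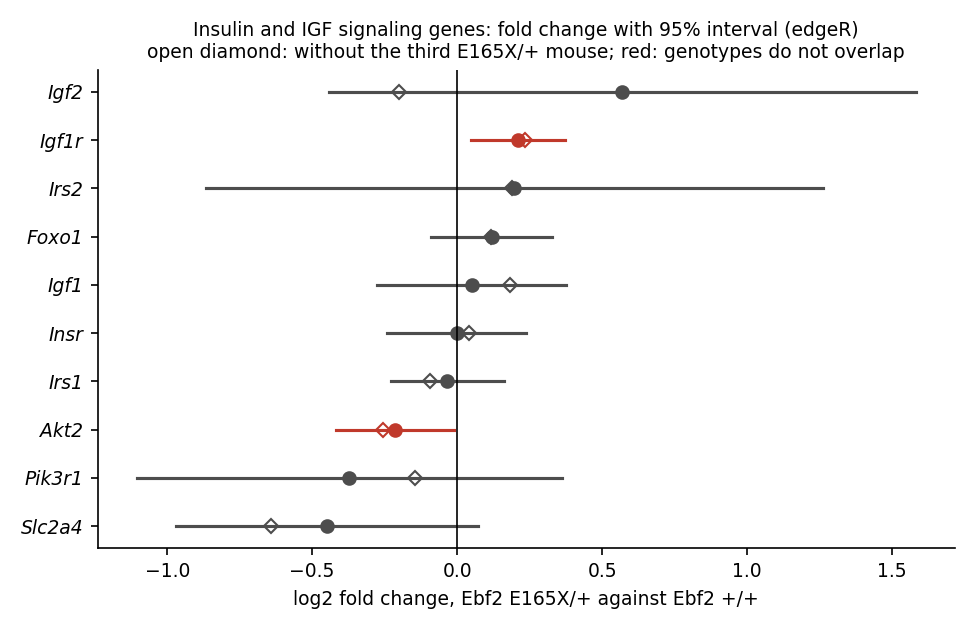
Log2 fold change (*Ebf2 E165X/+* over *Ebf2+/+*) of the 10 genes, with 95% intervals from the edgeR fit, beside the estimate without the third *Ebf2 E165X/+* mouse. Only the intervals of *Igf1r* and *Akt2* leave out 0, and *Igf2* has an interval from −0.44 to 1.58.

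*Igf1*, encoding the growth factor that fat and liver produce in response to growth hormone, had overlapping levels in the 2 genotypes. Its CPM values were 363, 376, and 352 in *Ebf2+/+* and 410.3, 415, and 304 in *Ebf2 E165X/+* mice. The first and second knock-in mice lay above all wild-type mice, and the third, with the muscle markers, lay below them all. This gave a log2 fold change of 0.05 (SE 0.14, 95% interval −0.27 to 0.37, edgeR adjusted P = 0.937). Without the third knock-in mouse it was 0.18, still with an edgeR adjusted P of 0.861. *Igf1* lies at chr10:87858265-87937042 on the plus strand (GRCm38).

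*Igf2*, encoding a fetal growth factor expressed from the paternal allele, was high in 1 mouse only. The CPM values were 19.5, 23.2, and 18.4 in *Ebf2+/+* mice, and 20.0, 15.5, and 55.2 in *Ebf2 E165X/+* mice. The other 5 libraries spanned 15.5 to 23.2 CPM, and the third knock-in library lay outside that range. With all mice the log2 fold change was 0.57 (SE 0.43, 95% interval −0.44 to 1.58, edgeR adjusted P = 0.783), and without that library it was −0.20 (edgeR adjusted P = 0.861). *H19*, a noncoding RNA from the maternal allele, is 72622 bases from *Igf2* (chr7:142650766-142666816, minus strand) and had its high value in the same library. *Trim63*, encoding a ubiquitin ligase of muscle, was also highest there, and its log2 fold change was 2.28 with all mice and −0.65 without that one (edgeR adjusted P = 0.783 with all mice). *H19* measured 264, 343, and 201 CPM in *Ebf2+/+* and 272, 147, and 1250.4 CPM in *Ebf2 E165X/+* mice, and its log2 fold change moved from 1.05 to −0.36 without the third knock-in mouse. The exons of *Igf2* overlap those of *Igf2os* on the opposite strand, which had 4 to 28 counts in a library.

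**Figure D2:**
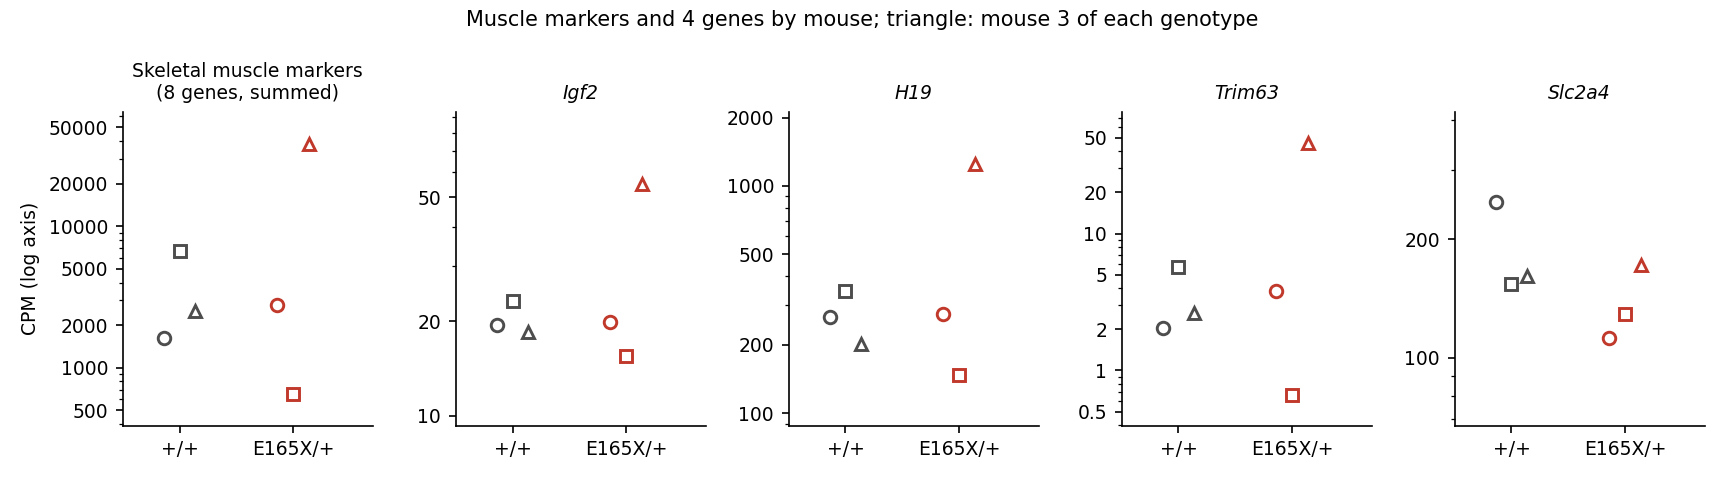
Summed skeletal muscle markers (8 genes), *Igf2*, *H19*, *Trim63*, and *Slc2a4* in CPM on log axes, 1 point for each mouse, with a triangle for the third mouse of each genotype. The third *Ebf2 E165X/+* mouse is the highest for the markers (38143 CPM), *Igf2* (55.2 CPM), *H19* (1250.4 CPM), and *Trim63* (45.9 CPM), whereas its *Slc2a4* (172 CPM) lies inside the *Ebf2+/+* range.

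*Insr*, encoding the insulin receptor, had almost the same mean in both genotypes, 151 ± 8.51 CPM in *Ebf2+/+* and 151 ± 17.1 CPM in *Ebf2 E165X/+* IWAT (SD, n = 3 each). The single values were 142, 157, and 156 CPM against 171, 140.4, and 142 CPM, with the highest and the lowest value both in knock-in mice. Their log2 fold change was −0.0021 (SE 0.10, edgeR adjusted P = 0.995), and its 95% interval, −0.24 to 0.24, leaves room for differences of that size in either direction. *Insr* spans chr8:3122061-3279617 on the minus strand.

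*Igf1r*, encoding the receptor for IGF1 and IGF2, was higher in every *Ebf2 E165X/+* mouse. The CPM values were 37.7, 37.0, and 40.9 in *Ebf2+/+* and 46.0, 44.8, and 43.0 in *Ebf2 E165X/+* mice, for means of 38.6 ± 2.10 and 44.6 ± 1.52 (SD, n = 3 each). The genotypes did not overlap except when scaled to the raw library total, where the third knock-in mouse (40.8 CPM) lay just below the third wild-type mouse (41.0 CPM). The log2 fold change was 0.21 (SE 0.069, 95% interval 0.05 to 0.37), or 1.16-fold, and it did not pass the test (adjusted P = 0.783 in edgeR and 0.813 in DESeq2). It ranged from 0.17 to 0.24 when each mouse was left out in turn. *Igf1r* spans chr7:67952827-68233668 on the plus strand.

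Of the 4 receptor genes examined, *Igf1r* and *Insrr* separated the genotypes, beside 13.4% of all genes. *Insrr*, encoding the insulin receptor-related receptor, averaged 2.62 ± 0.408 CPM in *Ebf2+/+* and 3.15 ± 0.155 CPM in *Ebf2 E165X/+* mice without overlap, and its log2 fold change of 0.26 (SE 0.18) did not pass the edgeR test (adjusted P = 0.783). It was 0.13 without the first wild-type mouse. *Igf2r*, encoding the receptor that clears IGF2, averaged 132 ± 4.35 CPM in *Ebf2+/+* and 129 ± 5.43 CPM in *Ebf2 E165X/+* mice.

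**Figure D3:**
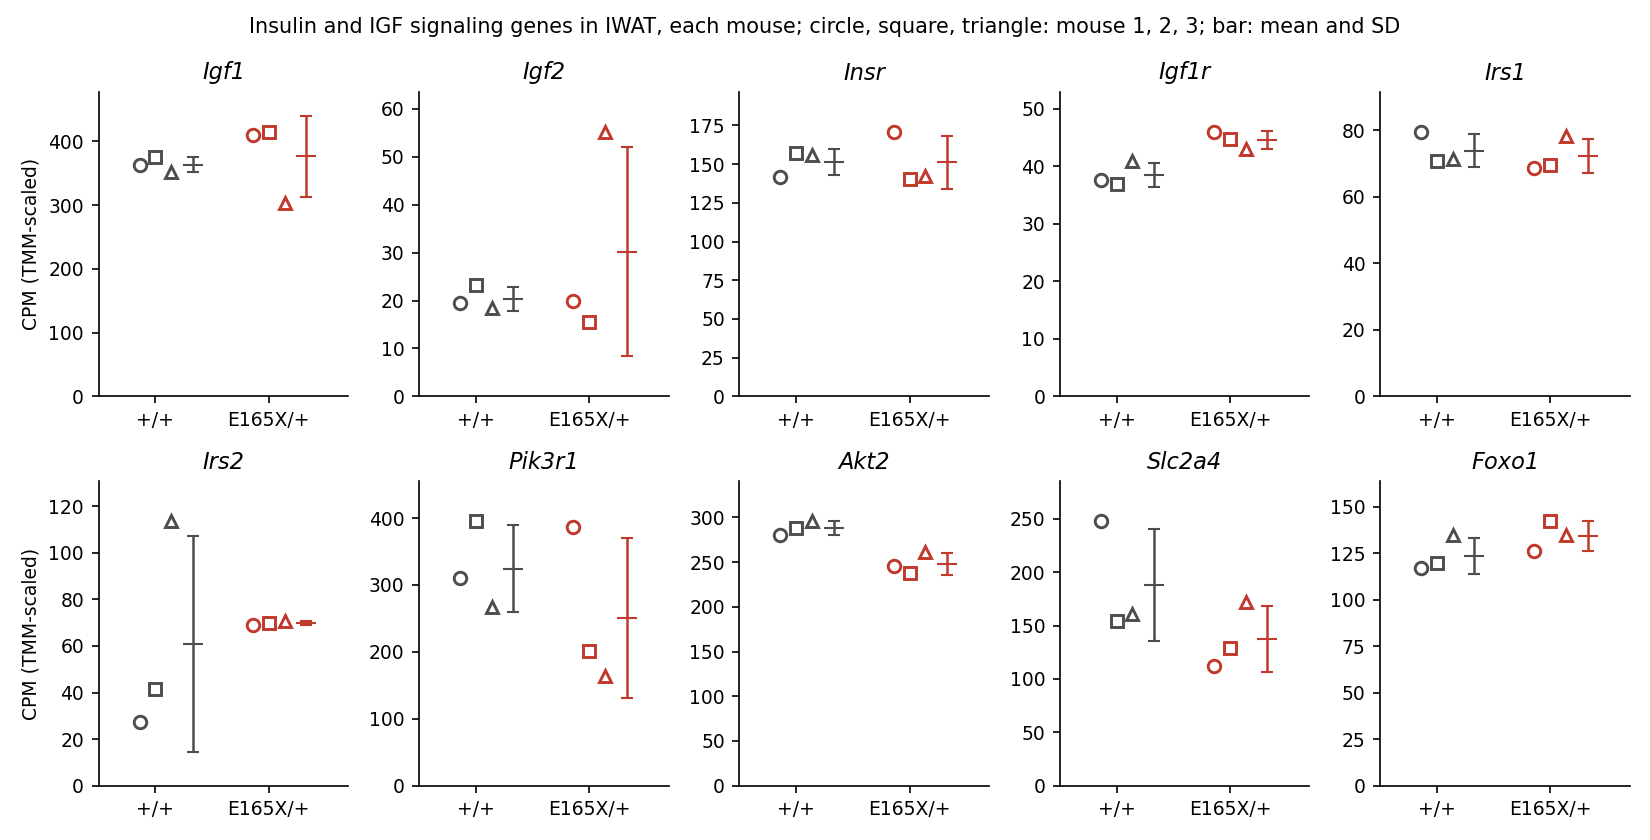
Level of each of the 10 genes in CPM, 1 panel for each gene, with 1 point for each mouse and the mean and SD of the 3 mice of each genotype. Only in the *Igf1r* panel (higher) and the *Akt2* panel (lower) do all *Ebf2 E165X/+* mice lie apart from all *Ebf2+/+* mice, and *Irs2* spreads from 27.4 to 113.7 CPM among wild-type mice.

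Of the receptor substrates, *Irs1*, encoding a docking protein of adipocyte insulin signaling, had overlapping levels. The CPM values were 79.6, 70.7, and 71.5 in *Ebf2+/+* and 68.8, 69.7, and 78.2 in *Ebf2 E165X/+* mice. The first and second knock-in mice lay just under the lowest wild-type value. Between genotypes the log2 fold change was −0.03 (SE 0.084, 95% interval −0.23 to 0.16, edgeR adjusted P = 0.927) and −0.09 without the third knock-in mouse. The exons of *Irs1* (chr1:82233101-82291416, minus strand) overlap those of *Gm9747* on the opposite strand, which had 3925 to 6988 counts in a library. Whether counting used the strand was not stated, so the *Irs1* counts are uncertain to that extent.

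*Irs2*, encoding the other main docking protein and a target of FOXO factors, varied more within one genotype than between them. The values were 27.4, 41.7, and 113.7 CPM in *Ebf2+/+* mice and 69.1, 69.7, and 70.8 CPM in *Ebf2 E165X/+* mice. All knock-in values lay within the wild-type range and within a narrow band of their own. The highest wild-type value was 4.15 times the lowest, a ratio larger than that of 99.1% of the genes that reached 10 counts in each library, whereas the knock-in ratio of 1.02 was larger than that of 1.83% of these genes. The median ratio over those genes was 1.22 in both genotypes. The third *Ebf2+/+* library also held the largest share of counts of a gene related to 18S ribosomal RNA, 1.67%, against 0.157% to 0.387% in the other libraries, and its part in the *Irs2* value was not tested. The log2 fold change of 0.20 (SE 0.46, 95% interval −0.87 to 1.26, edgeR adjusted P = 0.924) ran from −0.16 without the first *Ebf2+/+* mouse to 0.99 without the third. *Irs2* (chr8:10984681-11008458, minus strand) shares exon sequence with the antisense gene *9530052E02Rik*, which had 56 to 78 counts in a library.

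*Pik3r1*, encoding the p85α regulatory subunit of PI3K and its shorter forms, spread widely in both genotypes. Its CPM values were 311, 396, and 267 in *Ebf2+/+* and 387, 201, and 164.6 in *Ebf2 E165X/+* mice. The first knock-in mouse lay near the highest wild-type mouse, and the second and the third knock-in mice lay below all 3 wild-type mice. *Pik3r1* had a log2 fold change of −0.37 (SE 0.31, 95% interval −1.11 to 0.36, edgeR adjusted P = 0.783). It was −0.83 without the first *Ebf2 E165X/+* mouse and −0.14 without the third. *Pik3r1* spans chr13:101680563-101768217 on the minus strand.

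*Akt2*, encoding the AKT form that carries insulin action to glucose uptake in fat, was lower in every *Ebf2 E165X/+* mouse. The CPM values were 281, 288, and 296 in *Ebf2+/+* and 245, 238, and 262 in *Ebf2 E165X/+* mice, for means of 288 ± 7.63 and 248 ± 12.3 (SD, n = 3 each). The genotypes did not overlap, and the third knock-in mouse was the closest to the wild-type mice. The log2 fold change was −0.21 (SE 0.088, 95% interval −0.42 to −0.01), or 0.862-fold, and it did not pass the test (adjusted P = 0.783 in edgeR and 0.472 in DESeq2). It ranged from −0.25 to −0.18 when each mouse was left out in turn. *Akt1*, encoding the more widely expressed form, averaged 158 ± 12.8 CPM and 155 ± 4.61 CPM, a log2 fold change of −0.03 (SE 0.087). *Akt2* spans chr7:27591552-27640826 on the plus strand.

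*Slc2a4*, encoding the insulin-regulated transporter GLUT4 of fat and muscle, had lower values in part of the knock-in mice. The CPM values were 248, 154, and 161 in *Ebf2+/+* and 112, 129, and 172 in *Ebf2 E165X/+* mice. The first wild-type mouse was far above the others, and the third knock-in mouse, with the muscle markers, was the only one inside the wild-type range. *Slc2a4* had a log2 fold change of −0.45 (SE 0.22, 95% interval −0.97 to 0.07) with an adjusted P of 0.783 in edgeR and 0.930 in DESeq2. Without the third knock-in mouse the genotypes separated, at a log2 fold change of −0.64 (edgeR adjusted P = 0.798), and without the first wild-type mouse it was −0.21. *Slc2a1*, encoding the basal transporter GLUT1, averaged 21.98 ± 0.467 CPM in *Ebf2+/+* and 23.6 ± 1.79 CPM in *Ebf2 E165X/+* mice. *Slc2a4* spans chr11:69942539-69948188 on the minus strand.

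*Foxo1*, encoding a transcription factor that AKT inactivates, had overlapping levels of 117, 119, and 134.6 CPM in *Ebf2+/+* and 126, 142, and 134.7 CPM in *Ebf2 E165X/+* mice. The knock-in values lay in the upper part of the wild-type range or just over it. *Foxo1* had a log2 fold change of 0.12 (SE 0.089, 95% interval −0.09 to 0.33, edgeR adjusted P = 0.783), and 0.066 to 0.16 when each mouse was left out, with the lowest value without the first wild-type mouse. *Foxo1* spans chr3:52268336-52353221 on the plus strand.

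Ratios between related genes within a library do not depend on library scaling, and 6 were compared between the genotypes with the same exact permutation test. The log2 *Insr*/*Igf1r* ratio was 1.91, 2.08, and 1.93 in *Ebf2+/+* and 1.89, 1.65, and 1.72 in *Ebf2 E165X/+* mice. Every knock-in mouse was lower, by 0.22 on average (exact permutation P = 0.1, adjusted over the 6 ratios P = 0.3), and the first knock-in mouse was only just below the lowest wild-type mouse. The log2 *Akt2*/*Akt1* ratio was 0.72, 0.99, and 0.91 in *Ebf2+/+* and 0.68, 0.65, and 0.71 in *Ebf2 E165X/+* mice. These genotypes did not overlap either, with a difference of −0.19 (exact permutation P = 0.1, adjusted P = 0.3). Both ratios hold a gene that separated alone, *Igf1r* or *Akt2*. Their partners *Insr* and *Akt1* had log2 fold changes of −0.0021 and −0.03, so the ratios repeat those differences. How often other gene pairs separate was not tested. For the other 4 ratios the genotypes overlapped. *Irs1*/*Irs2* differed by −0.50 (exact permutation P = 0.6), *Igf1*/*Igf2* by −0.31 (P = 1), *Slc2a4*/*Slc2a1* by −0.53 (P = 0.3), and *Slc2a4*/*Adipoq*, with the adipocyte hormone adiponectin as the reference, by −0.14 (P = 0.8). Their adjusted P values were 0.9, 1, 0.6, and 0.96. The *Irs1*/*Irs2* difference was −0.00074 without the first wild-type mouse and −1.10 without the third, and the *Slc2a4*/*Slc2a1* difference was −0.31 without the first wild-type mouse. With the third knock-in mouse left out, the *Igf1*/*Igf2* difference was 0.39.

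**Figure D4:**
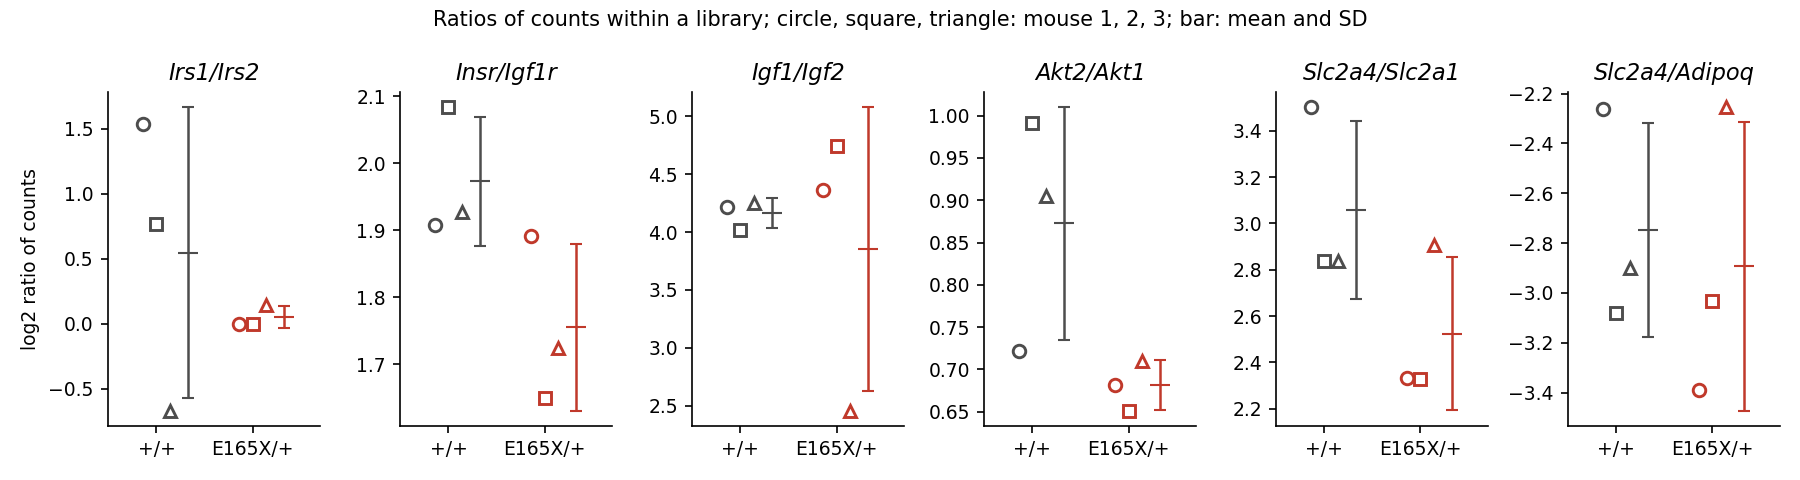
Log2 ratios of counts between 6 pairs of genes within each library, 1 point for each mouse, with the mean and SD of the 3 mice of each genotype. The *Insr*/*Igf1r* and *Akt2*/*Akt1* ratios of all *Ebf2 E165X/+* mice lie below those of all *Ebf2+/+* mice, and the low *Igf1*/*Igf2* point (2.46) is the third knock-in mouse.

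The wider pathway was read from 9 lists that together hold 122 genes, the 10 included. Of the 120 genes tested, 0 were called in edgeR or DESeq2, and at an unadjusted P under 0.05 edgeR returned 5 higher and 5 lower (8.33%), beside 4.77% of all genes tested (1.68% higher and 3.09% lower). The genotypes separated for 20 of the 117 genes that reached 10 counts in each library (17.1%), 13 higher and 7 lower, beside 13.4% of all such genes. Without the third *Ebf2 E165X/+* mouse, 43 of them separated (26.8% of all genes did). The median log2 fold change of the 120 genes was 0.066, beside 0.014 over all genes. It was 0.016 without the third *Ebf2 E165X/+* mouse, beside −0.0079 over all genes.

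Ligands and their binding proteins had a median log2 fold change of 0.21, and 11 of the 13 genes that reached 10 counts in each library had a positive estimate, as did 56.1% of all such genes. When the third knock-in mouse was left out, the median was 0.17, and the estimates of *Igf2* (−0.20) and *Igfbp5* turned negative. Of these 13 genes, 4 separated the genotypes without the third knock-in mouse, beside 26.8% of all genes. With all mice, 1 of the 13 separated (7.69%, beside 13.4% of all genes). This was *Stc1*, encoding a stanniocalcin that inhibits the protease releasing IGFs, at 9.18 ± 0.952 CPM in *Ebf2+/+* and 10.7 ± 0.747 CPM in *Ebf2 E165X/+* mice. *Igfbp5*, which encodes an IGF-binding protein, measured 557 ± 41.8 and 606 ± 123 CPM with overlap, and its log2 fold change was 0.12 with all mice and −0.04 without the third knock-in mouse. *Ins1* and *Igfbp1* had 0 counts in all 6 libraries, and *Ins2* had 1 count in 1 library.

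Among adaptors and receptor inhibitors, 2 of 16 genes separated (12.5%, near the 13.4% of all genes). *Sh2b2*, encoding the adaptor APS that binds the activated insulin receptor, measured 46.5, 41.5, and 39.6 CPM in *Ebf2+/+* and 35.4, 35.6, and 30.3 CPM in *Ebf2 E165X/+* mice. All knock-in mice lay lower, at a log2 fold change of −0.33 (SE 0.095), which did not pass (adjusted P = 0.783 in edgeR and 0.323 in DESeq2). *Ptpn1*, encoding the phosphatase PTP1B that dephosphorylates the insulin receptor, averaged 73.8 ± 2.15 CPM in *Ebf2+/+* and 78.0 ± 1.21 CPM in *Ebf2 E165X/+* mice.

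In the PI3K and AKT list, 6 of 19 genes separated (31.6%, beside 13.4% of all genes), 3 in each direction. Without the third knock-in mouse 10 of the 19 separated, beside 26.8% of all genes. *Pik3cd* and *Pik3cg*, encoding catalytic subunits found mostly in leukocytes, were higher in all knock-in mice. *Pik3cd* measured 84.1, 106, and 108.8 CPM in *Ebf2+/+* and 113, 129, and 113 CPM in *Ebf2 E165X/+* mice, and *Pik3cg* averaged 34.8 ± 4.29 and 41.2 ± 1.06 CPM. Their log2 fold changes were 0.25 (SE 0.12) and 0.24 (SE 0.096), with an edgeR adjusted P of 0.783 for both. Without the first wild-type mouse, which had the lowest level of both genes, they were 0.13 and 0.15. The summed level of 4 B cell markers, led by *Ms4a1*, moved with them, at 251, 402, and 410.3 CPM in *Ebf2+/+* and 420.1, 480.4, and 447 CPM in *Ebf2 E165X/+* mice (exact permutation P = 0.1, adjusted over 9 marker lists P = 0.36). Their log2 difference of 0.37 was 0.14 without the first wild-type mouse. The 4 T cell markers overlapped between genotypes, at 98.5 to 134.8 CPM in *Ebf2+/+* and 131 to 156 CPM in *Ebf2 E165X/+* mice (exact permutation P = 0.4), as did the 6 macrophage markers, at 1281 to 1629 and 1554 to 1714 CPM (exact permutation P = 0.5). None of these markers was at 0 in a library, and their part in the 2 PI3K genes was not tested.

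Of the mTOR genes, 3 of 17 separated with all mice (17.6%, near the 13.4% of all genes). Without the third knock-in mouse 8 of the 17 separated, beside 26.8% of all genes. *Mtor*, encoding the kinase itself, was 87.0, 77.2, and 75.3 CPM in *Ebf2+/+* and 69.8, 70.5, and 64.9 CPM in *Ebf2 E165X/+* mice. It was lower in every knock-in mouse, at a log2 fold change of −0.22 (SE 0.081, adjusted P = 0.783 in edgeR and 0.733 in DESeq2). *Mlst8*, encoding a subunit of both mTOR complexes, and *Rps6kb2*, encoding an S6 kinase, were higher by 0.10 on the log2 scale each, and neither passed. With 1 mouse left out the estimates went as low as 0.056 and 0.062. *Eif4ebp2*, encoding a translation repressor that mTOR inactivates, overlapped (log2 fold change 0.02, SE 0.10).

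In the list for GLUT4 and glucose uptake, 6 of 17 genes separated without the third knock-in mouse, beside 26.8% of all genes. With all mice, 1 of the 17 separated (5.88%, beside 13.4% of all genes). This was *Tbc1d1*, encoding a GTPase-activating protein of GLUT4 vesicles, at 40.5 ± 1.68 CPM in *Ebf2+/+* and 44.9 ± 0.939 CPM in *Ebf2 E165X/+* mice. *Sort1*, encoding the sorting protein sortilin of these vesicles, overlapped, at 406 ± 20.4 and 339.9 ± 64.3 CPM, and its log2 fold change was −0.26 with all mice and −0.14 without the third knock-in mouse. Among FOXO factors and their known targets, 4 of 19 separated (21.1%, beside 13.4% of all genes). *Pnpla2*, encoding the lipase ATGL and a target that FOXO1 can induce, was 1624, 1442, and 1444 CPM in *Ebf2+/+* and 1404, 967, and 851 CPM in *Ebf2 E165X/+* mice. It was lower in all knock-in mice at a log2 fold change of −0.49 (SE 0.21, adjusted P = 0.783 in edgeR and 0.469 in DESeq2), and −0.34 without the third. *Foxo3*, encoding a second FOXO factor, averaged 48.4 ± 4.16 and 56.8 ± 1.502 CPM, and *Sesn3*, encoding a stress-response protein that FOXO factors induce, averaged 125 ± 7.11 and 142 ± 6.25 CPM, both without overlap. *Pck1*, encoding a glyceroneogenic enzyme, overlapped (log2 fold change −0.02, SE 0.28, and 0.12 without the third knock-in mouse).

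Of the 8 genes of the growth hormone axis, 0 separated the genotypes, beside 13.4% of all genes. Without the third knock-in mouse 1 of the 8 separated, beside 26.8% of all genes. *Ghr*, encoding the growth hormone receptor, averaged 1018 ± 117 and 962 ± 155 CPM, and its log2 fold change was −0.08 with all mice and 0.05 without the third knock-in mouse. Of the imprinted growth genes, 1 of 11 separated (9.09%, beside 13.4% of all genes), namely *Dlk1*, encoding a preadipocyte surface protein that restrains adipogenesis. Its low level was 2.75, 2.47, and 2.31 CPM in *Ebf2+/+* and 1.09, 0.921, and 1.93 CPM in *Ebf2 E165X/+* mice. *Dlk1* had a log2 fold change of −0.93 (SE 0.30, adjusted P = 0.783 in edgeR and 0.157 in DESeq2), and −1.32 without the third knock-in mouse, which had the highest knock-in value.

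**Figure D5:**
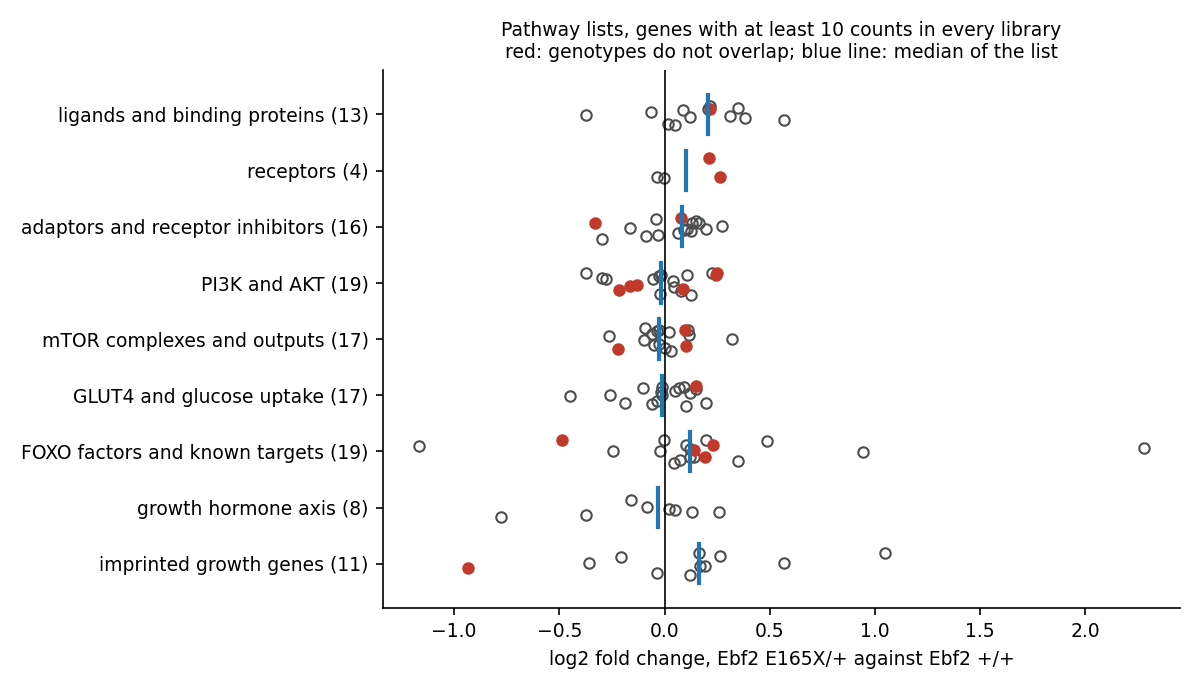
Log2 fold changes of the genes in each of the 9 pathway lists that reached 10 counts in each library, 1 point for each gene, with the median of each list and marks for genes whose genotypes did not overlap. The ligands and binding proteins have a median near 0.21, and the other lists have medians closer to 0.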

How the data were processed

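IWAT RNA from 6 mice was sequenced, 1 library for each mouse. The labels name an NEB kit for the libraries, whereas the study's methods describe 3′ mRNA sequencing, so levels were not compared between genes. The highest CPM in a list, and the gene said to lead a marker list, served only to pick genes, since CPM also depends on transcript length in a library read along whole transcripts. Per the submitters' processing notes, the tools were cutadapt 4.8, FastQC 0.11.8, STAR 2.7.8a, RSEM 1.3.3, and MultiQC 1.20, on GRCm38; whether counting used the strand was not stated. The deposited values are expected counts per gene, estimated by the authors and not normalized. All 332946 values were whole, so rounding to whole numbers altered none. Columns were assigned to mice by the library names in the labels, and 0 columns were left unassigned. Neither the labels nor the methods used here say whether mice shared litters. The edgeR P values set the genotype difference against the variance among these 3 mice of each genotype, moderated over all genes. They do not account for shared litters.

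The 32664 of 55491 genes with a count of 1 or more in some library were fitted with edgeR 4.0.16 (R 4.3.3; TMM scaling, quasi-likelihood test, genotype as the only term), with Benjamini-Hochberg adjustment over all of them. A gene was called at an adjusted P below 0.05 and a linear fold above 1.5. The study's methods give this fold on the linear scale and its results on the log2 scale, and the linear reading was used. The 95% intervals used the t distribution with the fit's 7.53 degrees of freedom. Ratios had 0.5 added to each count. Alternatives were DESeq2 1.42.0, limma-voom (limma 3.58.1), other scaling, other count filters, a replicate block, and leaving out each mouse. DESeq2 values are from the run without independent filtering unless stated. With that filtering, the DESeq2 adjusted P was 0.258 for *Akt2*, 0.464 for *Igf1r*, and 0.539 for *Slc2a4*. Tested on simulated counts of 31679 genes for this comparison, edgeR recovered 185 of 200 genes changed by 2 on the log2 scale and also called 44 unchanged genes. On the same counts DESeq2 recovered 196 and called 77 unchanged genes, and limma-voom recovered 175 and called 24. The log2 fold changes of the 10 genes ran from −0.45 to 0.57, and recovery of genes changed by so little was not tested.

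The genes named are the 10 components, *Ebf2*, and, from each pathway list, every called gene, the 3 largest fold changes among genes with a mean of at least 1 CPM and no overlap between genotypes, and the gene with the highest mean CPM. One gene that this rule names is not reported here. Genes named outside this rule (*Cidea*, *Ucp1*, *Akt1*, *Slc2a1*, *Igf2r*, *Trim63*, *Ins1*, *Ins2*, *Igfbp1*, *Ddit4*, *Pdk4*, and *Cish*) were chosen after their values were seen. The 10 components and all lists were chosen with earlier results of these data known. Gene positions are from GENCODE M21, in which 55141 of the 55491 gene identifiers were found.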

Additional observations from a re-analysis of the deposited data

How the results depend on the processing

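None of the 10 genes and none of the 122 pathway genes was called under any alternative run. The number of genes called was 3 in edgeR, from 2 to 4 under the other scaling, the other filters, no threshold on fold change, limma-voom, and the replicate block, and 92 and 98 in DESeq2 without and with independent filtering. Leaving out each mouse gave 1 (without the second *Ebf2+/+* mouse) to 11 genes (without the third *Ebf2 E165X/+* mouse). The replicate numbers gave no sign of pairing between mice. Deviations of same-numbered mice correlated at 0.15, −0.28, and −0.16, and those of differently numbered mice ran from −0.32 to 0.39. With 3 mice of each genotype, this check cannot exclude shared litters. With the replicate block 2 genes were called and 0 of the 10.

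Of the 10 genes, 2 separated the genotypes, 1 with scaling to the raw library total, where *Igf1r* overlapped, and 2 to 5 when each mouse was left out. With 1 mouse fewer the groups separate more often for all genes too. There were 4 without the third *Ebf2+/+* mouse (27.3% of all genes separated) or the first *Ebf2 E165X/+* mouse (23.6%), and 5 without the third *Ebf2 E165X/+* mouse (26.8%). For the 117 pathway genes, with alternatives added after seeing the data, the count of 20 (17.1%, against 13.4% of all genes) was 19 with DESeq2 size factors and 17 with raw totals, and 23 (19.7% against 20.9% of all genes, without the first *Ebf2+/+* mouse) to 43 when each mouse was left out. It was 37 (31.6%) without the third *Ebf2+/+* mouse, and 43 (36.8%) without the first or the third *Ebf2 E165X/+* mouse. Among the lists, 4 of 16 adaptors and receptor inhibitors, 7 of 19 FOXO factors and targets, and 2 of 11 imprinted genes separated without the third *Ebf2 E165X/+* mouse. Leaving out single mice reversed the log2 fold change of *Insr* (−0.099 to 0.048), *Irs1* (−0.094 to 0.0084), *Irs2* (−0.16 to 0.99), *Igf1* (−0.027 to 0.18), and *Igf2* (−0.20 to 0.89). The same held for the log2 ratio differences of *Igf1*/*Igf2* (−0.76 to 0.39) and *Slc2a4*/*Adipoq* (−0.46 to 0.10) and for the muscle marker level (0.44 with all mice, −1.17 to 1.77). The median log2 fold change of the 10 genes (0.024 with all mice) also changed sign, running from −0.027 to 0.020. The causes were not tested. Of 21 other pathway genes chosen by the naming rule, 6 changed the sign of their estimate when some mouse was left out, among them *Igfbp5*, *Eif4ebp2*, *Pck1*, *Ghr*, and *H19*, and 9 kept it but moved by over 1.5 times (*Stc1*, *Insrr*, *Ptpn1*, *Pik3cd*, *Pik3cg*, *Mlst8*, *Rps6kb2*, *Sort1*, and *Foxo3*). Each of the 10 genes had at least 1932 counts in every library.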

Other observations

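The genes below were chosen after their values were seen, and none passed the edgeR test. *Pdk4*, encoding a kinase that restrains glucose oxidation, measured 134, 323, and 486 CPM in *Ebf2+/+* and 98.7, 98.4, and 223 CPM in *Ebf2 E165X/+* mice. Its log2 fold change was −1.17 (SE 0.49, edgeR adjusted P = 0.783), and the genotypes overlapped. It was −0.73 without the third wild-type mouse and −1.67 without the third knock-in mouse. *Ddit4*, encoding an inhibitor of mTOR complex 1, measured 42.5, 45.5, and 82.8 CPM in *Ebf2+/+* and 75.9, 64.4, and 73.3 CPM in *Ebf2 E165X/+* mice, so that, as for *Irs2*, the third wild-type mouse was the highest of all 6 and the knock-in mice lay between it and the other wild-type mice. *Cish*, encoding a growth hormone-induced inhibitor of cytokine signaling, measured 77.5, 87.9, and 25.4 CPM in *Ebf2+/+* and 84.1, 10.7, and 16.5 CPM in *Ebf2 E165X/+* mice, with a high and a low mouse in each genotype. *Trim63* measured 45.9 CPM in the third *Ebf2 E165X/+* mouse, the library with the highest muscle markers, and 0.657 to 5.74 CPM in the others.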
